A study of Homo sapiens with 6 samples.

Results

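The 10 S100 calcium-binding proteins described here are S100P, S100A2, S100A3, S100A4, S100A6, S100A8, S100A9, S100A10, S100A11 and S100A13, which are 10 of the 11963 genes that the array annotation names alone on at least 1 probe set. They were chosen by gene family with results of the siPTHrP against siLuc comparison already known, so their differences between these groups are a description. Where members are counted among the calls of a fit over all probe sets, the share over all probe sets stands beside the count and nothing is read from it. All 12 probe sets that name 1 of them alone were used, and S100A8 and S100A13 had a pair each. Of these, 8 probe sets, standing for 7 genes, reached the 40th percentile of mean log2 signal, a signal of about 376. Those of S100A4, S100A8 and S100A9 did not, and their values are shown all the same.

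S100 proteins are small calcium sensors built from paired EF-hand motifs. Most of them form dimers that open on calcium binding and grip a target protein, and several are also secreted and act on cell surface receptors. Of the 10 genes described here, all but S100P lie in a cluster on chromosome 1 that they share with genes of the skin barrier, while S100P lies on chromosome 4. In breast cancer cells the family is best known through S100A4, which loosens myosin filaments and is linked to metastasis, and through S100P, S100A8 and S100A9, which signal through the receptor RAGE.

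The siPTHrP group held 3 RNAs of MDA-MB-231 cells electroporated with siRNA against parathyroid hormone-related protein, and the siLuc group held 3 RNAs of the same line electroporated with siRNA against luciferase. MDA-MB-231 is an established human breast cancer line with mesenchymal features and without hormone receptors. Each of 3 independent experiments gave 1 RNA per group, taken 3 days after electroporation, and each RNA was hybridised to 1 Affymetrix human expression array. One cell line was studied. The targeted transcript is not analysed here, so these values do not check the knockdown. A bulk RNA cannot tell a smaller share of expressing cells from less RNA per cell.

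Values are MAS5 signals, a linear intensity per probe set that was scaled to the same trimmed mean on every array (1500.4 to 1500.6). Differences are siPTHrP minus siLuc of log2(signal + 16) within an experiment, given as the mean of 3 experiments with their SD. Signals are compared between arrays for the same probe set only, since probe sets differ in their brightness. One array stood apart, that of the siLuc RNA of experiment 1. Its rank correlation with the other 5 across probe sets was 0.716 to 0.725, and the other 5 reached 0.882 to 0.96 among themselves. Its dim probe sets were bright: the lower quartile of its signals was 250.75, against 150 to 211 on the other 5. Of its values 90.1% carried decimals, against 0% on each of the other 5. The geometric mean of 18 hybridisation control probe sets was 273100 on it, against 10840 to 41430 on the other 5. Whether it was run or processed differently was not tested. Over the 8886 probe sets under the 40th percentile the median log2 difference was -1.22 in experiment 1, -0.42 in experiment 2 and -0.33 in experiment 3. Values without experiment 1 are therefore given for members and for lists with a printed median. For other genes with a printed mean they are given for the brightest probe set, where its sign turned or its value moved by over 1.5 times. By their means over the arrays the markers were as known for this line, except that ESR1 and KRT5 reached the 40th percentile. VIM, CD44, AXL, MSN and CAV1 had mean percentiles of 92.73 to 99.75 among the probe sets of an array. The epithelial or hormone receptor genes CDH1, PGR, ESR1, KRT5 and KRT14 had 9.59 to 47.6. On the siLuc array of experiment 1 these 5 lay, in that order, at percentiles 33.0, 49.3, 71.9, 73.5 and 4.6.

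Across the 10 genes, each by its brightest probe set, 8 stood higher and 2 lower with siPTHrP. Their median log2 difference was 0.26, against 0.030 over the 13329 probe sets above the 40th percentile and -0.16 over all 22215. The genes differed more among themselves than this median shows. S100P and S100A3 had mean differences above a log2 of 1, S100A2, S100A6, S100A10, S100A11 and S100A13 lay between 0.19 and 0.30, and S100A8 and S100A9 lay below 0. In limma with the experiment as a block, 0 of the 8 member probe sets tested had a Benjamini-Hochberg adjusted p under 0.05, against 0.0% over all 13329. At an unadjusted p under 0.05 there was 1 of 8, S100P, against 12.1% over all, and nothing is read from either count.

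**Figure D1:**
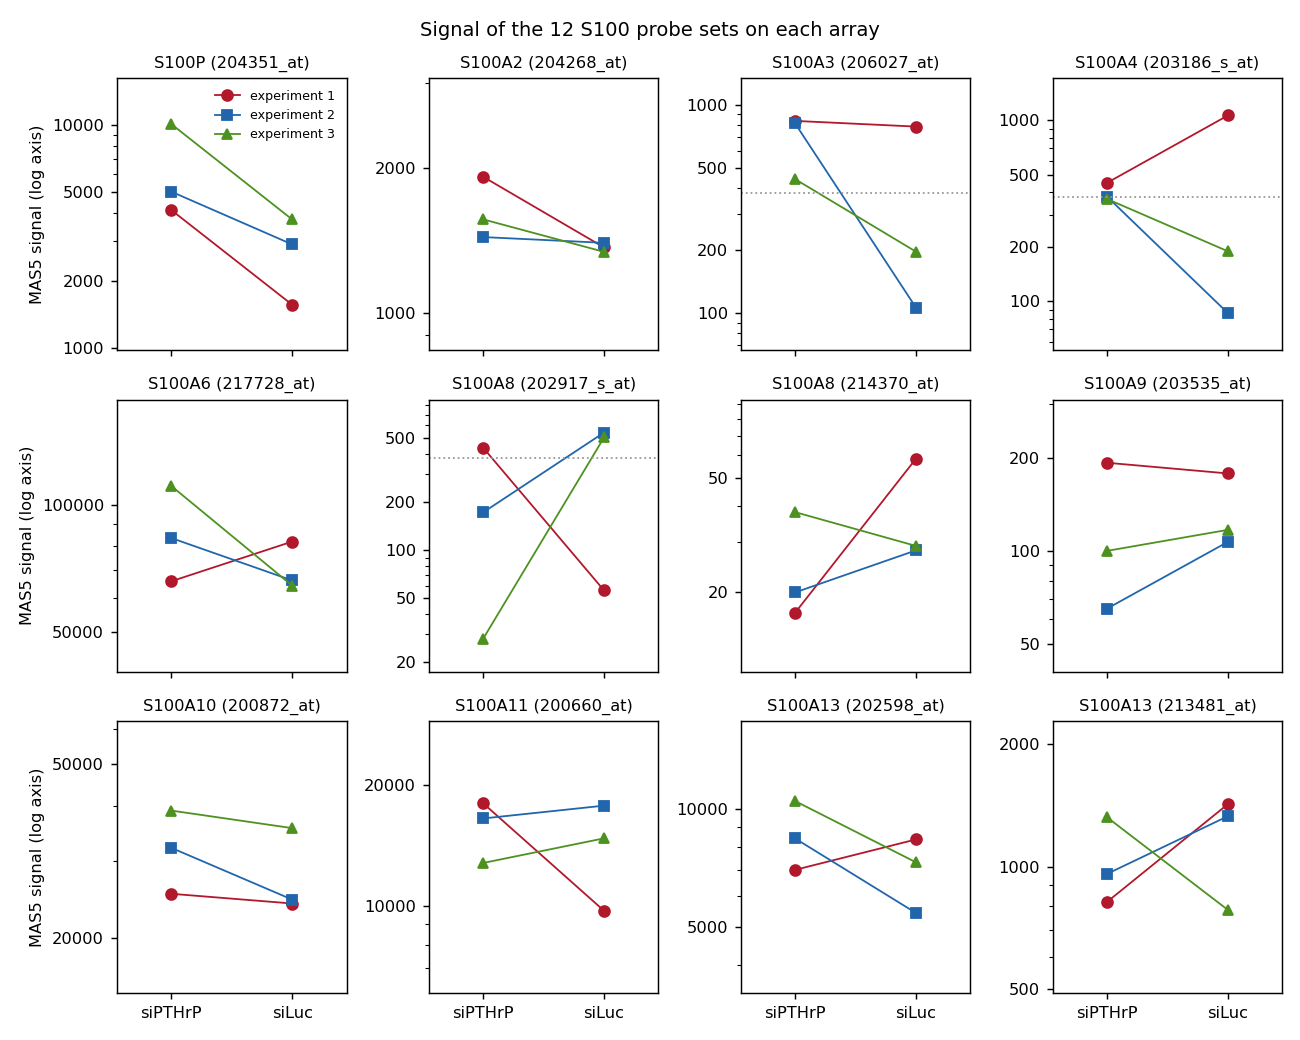
MAS5 signal (log axis) of the 12 S100 probe sets on the 3 siPTHrP arrays (left) and the 3 siLuc arrays (right) of each panel, with lines joining the arrays of 1 experiment and a dotted line at a signal of 376, the 40th percentile cut, where it falls in the panel. All 3 lines slope the same way for S100P, S100A2, S100A3 and S100A10, and the line of experiment 1 slopes against the other 2 for S100A4, S100A6, S100A9, S100A11 and the brighter probe sets of S100A8 and S100A13.

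S100P, a secreted S100 protein that binds RAGE and the membrane linker ezrin, had the clearest separation of the groups. Its signals were 4146, 5009 and 10067 with siPTHrP in experiments 1, 2 and 3, against 1559, 2905 and 3759 with siLuc. Every siPTHrP array lay above every siLuc array. Experiments 1, 2 and 3 differed by a log2 of 1.40, 0.78 and 1.42, a mean of 1.20 ± 0.36 (SD, n = 3), or 2.30-fold. The lowest siLuc value was on the array that stood apart, and the fold was 2.14 without experiment 1 and 1.79 without that array alone. Its percentile among all probe sets of an array, which does not depend on scaling, was 89.4, 91.3 and 96.1 with siPTHrP, against 68.5, 84.7 and 88.8 with siLuc, so by rank the siLuc array of experiment 3 came close to the siPTHrP array of experiment 1.

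The 250 bases before the annotated start of S100P are shown because its difference was large in each experiment. They lie at chr4:6693628-6693877 on the plus strand of GRCh38.p14, from RefSeq, and capitals mark a cAMP response element half-site (TGACG, here on the reverse strand) and a TATA box (TATAAA).
S100P: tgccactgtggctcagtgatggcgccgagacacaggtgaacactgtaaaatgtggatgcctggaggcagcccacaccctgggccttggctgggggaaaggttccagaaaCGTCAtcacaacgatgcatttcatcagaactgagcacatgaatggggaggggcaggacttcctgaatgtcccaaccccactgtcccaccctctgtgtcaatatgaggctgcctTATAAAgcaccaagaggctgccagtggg

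The half-site lies 141 to 137 bases and the TATA box 28 to 23 bases before the start. These motifs were searched on both strands of 35116 RefSeq promoter windows of this length, together with the full cAMP response element (TGACGTCA, which contains the half-site), the AP-1 site (TGANTCA), the CCAAT box (CCAAT) and the GC box (GGGCGG). The half-site was found in 21.2% of all windows and the TATA box in 10.7%. The 10 genes had 15 windows. The half-site was found in 3 of the 15, for S100A6, S100A13 and S100P. The TATA box was found in 6 of the 15, for S100A4, S100A8, S100A9, S100A13 and S100P. Nothing is read from these counts. None of the 15 held the full element, which 1.65% of all windows hold. A match is a description of the letters, and no measurement here shows a factor bound there.

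The neighbouring genes S100A4 and S100A3 shared a pattern that depended on the experiment. S100A4 binds non-muscle myosin and promotes cell motility, and S100A3 is known as a zinc- and calcium-binding protein of hair cuticle cells. S100A4 had signals of 452, 379 and 368 with siPTHrP in experiments 1, 2 and 3, against 1066, 86 and 189 with siLuc. S100A3 had 838, 815 and 440 with siPTHrP, against 786.8, 106 and 197 with siLuc. For both genes all siPTHrP arrays lay above the siLuc arrays of experiments 2 and 3. The siLuc array of experiment 1 was the brightest of all for S100A4 and lay among the siPTHrP arrays for S100A3.

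In experiments 1, 2 and 3 S100A4 differed by a log2 of -1.21, 1.95 and 0.91, with a mean of 0.55 ± 1.61 (SD, n = 3), smaller than the spread between experiments. That of S100A3 was 0.089, 2.77 and 1.10, with a mean of 1.32 ± 1.35 (SD, n = 3), also smaller than the spread. Without experiment 1 the folds were 2.69 for S100A4 and 3.82 for S100A3. Both genes are dim: the mean log2 signal of S100A4 was 8.42, just under the cut of 8.614, and that of S100A3 was 8.76, just over it. S100A3 was above a signal of 376 on the siPTHrP arrays and on 1 siLuc array. By rank S100A3 lay at percentiles 58.5, 58.6 and 42.9 with siPTHrP, against 47.1, 15.8 and 23.6 with siLuc, so by rank too the siLuc arrays of experiments 2 and 3 were the low ones.

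The gene between S100A6 and S100A4 in the RefSeq order is S100A5, a calcium- and copper-binding member that is not among the 10 and was under the cut. It had 323, 426 and 236 with siPTHrP, against 427, 34 and 75 with siLuc, so the siLuc arrays of experiments 2 and 3 were the lowest, as for its neighbours S100A4 and S100A3. It differed by a log2 of -0.39, 3.14 and 1.47 in experiments 1, 2 and 3. The genes on either side of this trio, S100A6 and S100A2, had smaller differences in experiments 2 and 3 (0.33 and 0.79 for S100A6, 0.039 and 0.22 for S100A2). S100A5 was singled out after its values were seen. The siPTHrP arrays lay above the siLuc arrays of experiments 2 and 3 for 4 of the 12 member probe sets (S100P, S100A2, S100A3 and S100A4), where the share over all probe sets was 10.3%. That count too was made after the values were seen. The part of the siLuc array of experiment 1, and of its raised dim signals, in this pattern was not tested beyond leaving it out.

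**Figure D2:**
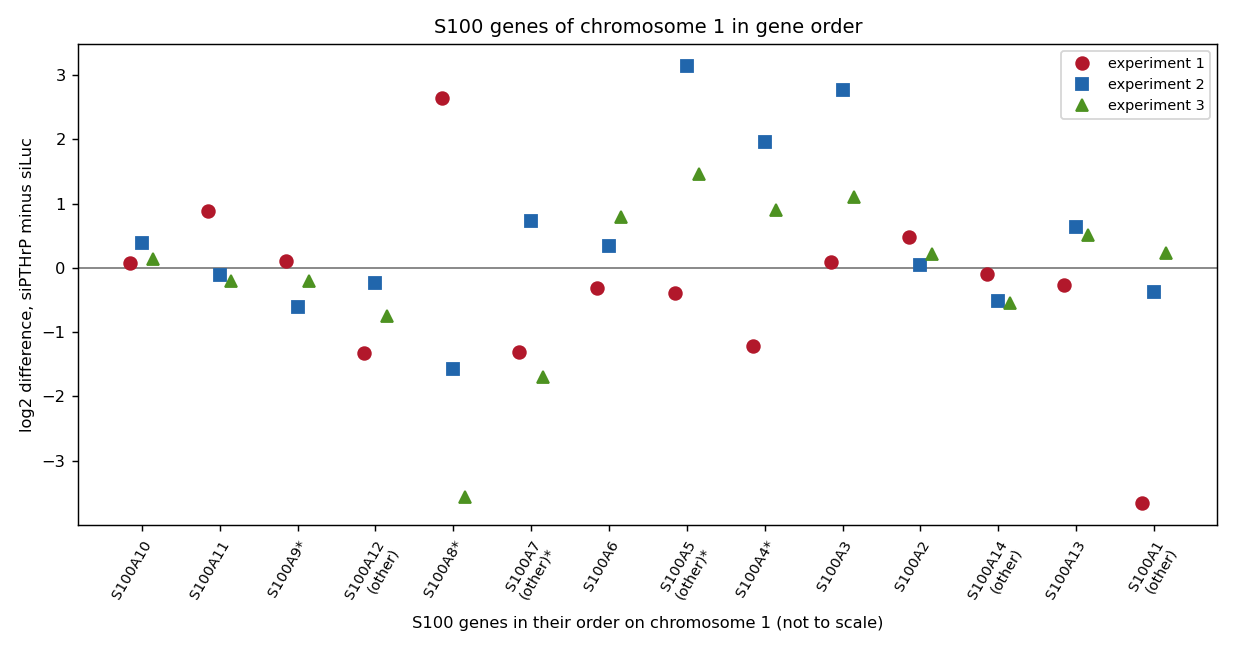
Log2 difference (siPTHrP minus siLuc, y axis) of 14 S100 genes in their RefSeq order on chromosome 1 (x axis, not to scale), with 1 point per experiment "(other)" marking S100 genes outside the 10 and an asterisk marking those under the 40th percentile, S100A5 and S100A4 included. S100A5, S100A4 and S100A3 stand next to each other with values of 0.91 to 3.14 in experiments 2 and 3 and of -1.21 to 0.089 in experiment 1.

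The 250 bases before the starts of S100A4 and S100A3 are shown because the pair shared this pattern. They are RefSeq sequences of GRCh38.p14, on the minus strand, at chr1:153545807-153546056 for S100A4 and chr1:153549259-153549508 for S100A3, and capitals mark a TATA box in S100A4 and an AP-1 site, a GC box and a CCAAT box in S100A3.
S100A4: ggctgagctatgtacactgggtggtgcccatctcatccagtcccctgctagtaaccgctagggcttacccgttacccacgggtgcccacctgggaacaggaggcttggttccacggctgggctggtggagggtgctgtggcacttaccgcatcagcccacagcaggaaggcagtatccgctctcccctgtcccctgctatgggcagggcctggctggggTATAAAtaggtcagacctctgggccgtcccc
S100A3: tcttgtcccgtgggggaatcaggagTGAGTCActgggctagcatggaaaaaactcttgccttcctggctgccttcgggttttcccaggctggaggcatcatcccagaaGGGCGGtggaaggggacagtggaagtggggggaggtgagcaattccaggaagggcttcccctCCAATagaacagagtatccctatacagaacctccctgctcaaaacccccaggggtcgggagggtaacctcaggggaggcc

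These windows had no motif of the 6 in common. The AP-1 letters were found in 6.57% of all windows and in 2 of the 15 windows of the 10 genes, for S100A2 and S100A3. The GC box was found in 42.6% and the CCAAT box in 32.0% of all windows.

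S100A2, a mostly nuclear member that is lost in many breast tumours, gave a small difference. Its signals were 1917, 1437 and 1564 with siPTHrP in experiments 1, 2 and 3, against 1367.6, 1398 and 1339 with siLuc. The groups did not overlap, but in experiment 2 they were nearly level, with a log2 difference of 0.039. The mean log2 difference was 0.25 ± 0.22 (SD, n = 3), or 1.19-fold, and 1.10-fold without experiment 1. Of the 12 member probe sets, 2 had all siPTHrP arrays above all siLuc arrays (S100P and S100A2), against 6.2% of all probe sets, and 0 had all of them below, against 12.6%. The array values of both genes belong to the comparison that chose the family, so nothing is read from these counts.

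S100A10, S100A11 and S100A6 are partners of annexins, the proteins that bind membranes in a calcium-dependent way. S100A10 stays in its open shape without calcium and, with annexin A2, holds plasminogen at the cell surface. It had 25225, 32126 and 39065 with siPTHrP in experiments 1, 2 and 3, against 23966, 24469 and 35621 with siLuc. It was higher in each experiment by a log2 of 0.074, 0.39 and 0.13, while the groups overlapped, since both arrays of experiment 3 were brighter than those of experiment 1. The mean was 0.20 ± 0.17 (SD, n = 3), or 1.15-fold, and 1.20-fold without experiment 1.

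S100A11 helps seal damaged membranes together with annexins A1 and A2. It had 17976, 16478 and 12772 with siPTHrP, against 9713, 17732 and 14706 with siLuc. Only the siLuc array of experiment 1 was clearly low, and the other 5 arrays lay close together with the groups overlapping. Its log2 difference was 0.89, -0.11 and -0.20 in experiments 1, 2 and 3, a mean of 0.19 ± 0.60 (SD, n = 3), and -0.15 without experiment 1, so its sign rests on that array.

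S100A6 (calcyclin), which is tied to cell proliferation and binds the ubiquitin ligase adaptor CACYBP, had 65781, 83362 and 110839 with siPTHrP, against 81720, 66117 and 64296 with siLuc. The siPTHrP arrays spread widely and the groups overlapped. Experiments 1, 2 and 3 differed by a log2 of -0.31, 0.33 and 0.79, a mean of 0.27 ± 0.55 (SD, n = 3), and the fold was 1.47 without experiment 1.

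S100A13, which takes part in the release of FGF1 and interleukin 1 alpha by cells under stress, was read by 2 probe sets, whose means had opposite signs over 3 experiments and the same sign without experiment 1. On the brighter one it had 6995, 8414 and 10486 with siPTHrP, against 8367.5, 5427 and 7311 with siLuc, a mean log2 difference of 0.30 ± 0.48 (SD, n = 3), and 0.58 without experiment 1. On the other it had 819, 960 and 1323 with siPTHrP, against 1427, 1332 and 782 with siLuc, a mean of -0.17 ± 0.81, and 0.14 without experiment 1. On both, experiment 1 gave a lower and experiment 3 a higher signal with siPTHrP, and the probe sets differed in sign in experiment 2 (0.63 and -0.47). The groups overlapped on both.

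S100A8 and S100A9 pair as calprotectin, a protein abundant in neutrophils and monocytes that signals through TLR4 and RAGE. S100A8 had 436, 172 and 28 with siPTHrP in experiments 1, 2 and 3, against 56.1, 542 and 505 with siLuc on its brighter probe set. Its log2 difference turned from experiment to experiment, with 2.65, -1.57 and -3.57, and the mean of -0.83 ± 3.17 (SD, n = 3) was far smaller than the spread. Without experiment 1 it was -2.57, and without the siLuc array of experiment 1 alone -1.80. Its other probe set stayed between 17 and 38 with siPTHrP and between 28 and 58.3 with siLuc, and gave differences of -1.17, -0.29 and 0.26, with a mean of -0.40, and -0.013 without experiment 1.

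S100A9 had 193, 65 and 100 with siPTHrP, against 178, 107 and 117 with siLuc, a mean log2 difference of -0.23 ± 0.36 (SD, n = 3), and -0.40 without experiment 1, with overlapping groups. All probe sets of S100A8 and S100A9 were under the cut of about 376 in mean log2 signal, where the SD of the 3 differences had a median of 1.17, against 0.51 above it. Of 8 myeloid markers on the same arrays, 6 (PTPRC, CD14, LYZ, CSF1R, TYROBP and MNDA) were under the cut. FCER1G and ITGAM were above it, with signals of 646 to 1619 and of 482 to 826. The summed signal of the 8 was 1935 to 2284 with siPTHrP and 2097 to 5740 with siLuc, the highest on the siLuc array of experiment 1. Their part in the S100A8 and S100A9 values was not tested.

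**Figure D3:**
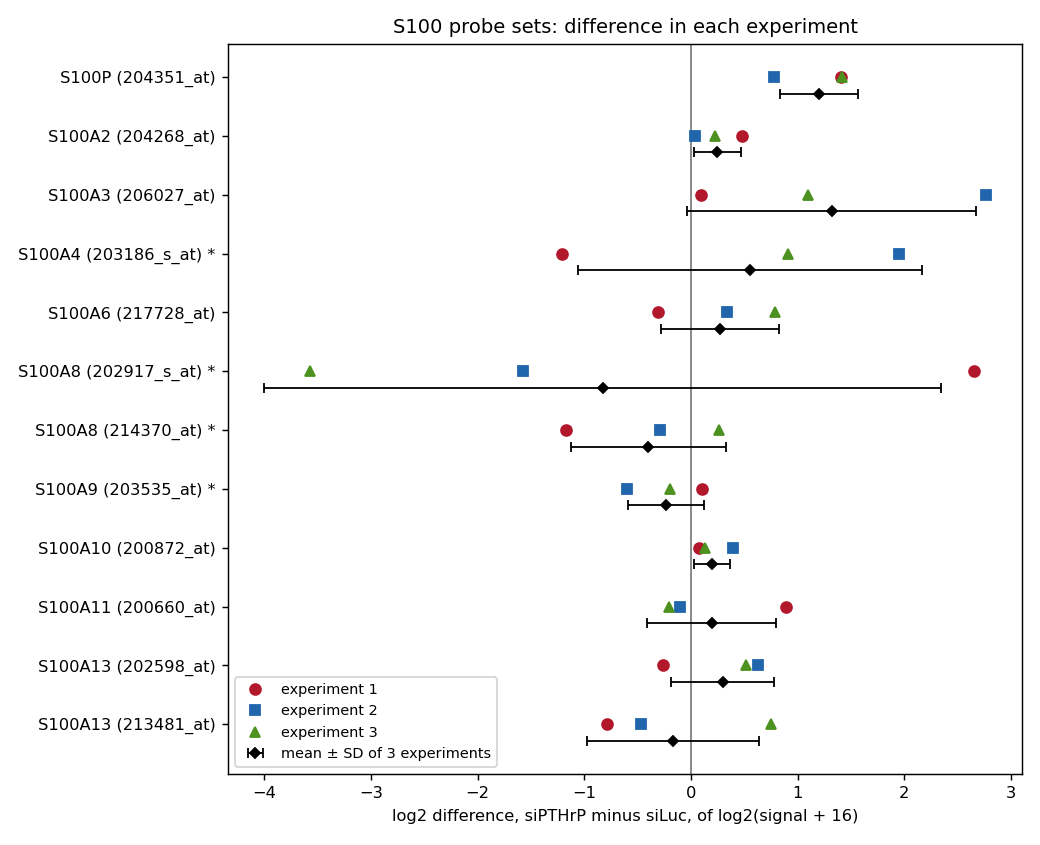
Log2 difference (siPTHrP minus siLuc, x axis) of the 12 S100 probe sets in each of 3 experiments, with the mean ± SD in black and an asterisk on probe sets under the 40th percentile of mean log2 signal. The 3 points of S100P lie at 0.78 to 1.42, those of S100A2 and S100A10 lie close above 0, and those of the brighter S100A8 probe set run from -3.57 to 2.65.

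Set side by side, 4 of the 12 member probe sets were higher with siPTHrP in all 3 experiments (S100P, S100A2, S100A3 and S100A10), where 13.4% of all probe sets were, and 0 were lower in all 3, where 25.0% were. A mean log2 difference of at least 1 upward was seen on 2 (S100P and S100A3), against 3.95% of all probe sets, and one of at least 1 downward on 0, against 16.4%. The downward shares over all probe sets include the dim ones, whose differences ran below 0. Since the comparison chose the genes, these counts describe them and carry no further reading. The median over the 10 genes was 0.098, 0.36 and 0.37 in experiments 1, 2 and 3, and over probe sets above the cut 0.082, -0.037 and -0.017. The genes behind these medians differed. S100A2, S100A8, S100A9 and S100A11 had their highest difference in experiment 1, and S100A3, S100A4, S100A6, S100A10 and S100A13 had their lowest there, each by its brightest probe set.

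The other S100 genes on the array stood mostly below 0 over 3 experiments, as did 59.5% of all probe sets, and were split without experiment 1. Of 7 measured (S100A1, S100A5, S100A7, S100A12, S100A14, S100B and S100G), 1 had a mean log2 difference above 0, S100A5, and 6 below, with a median of -0.76. Without experiment 1, 3 were above 0 and 4 below, with a median of -0.072. Whether they differ from the 10 was not tested. Of the 3 above the cut 0 passed the limma test, and 0 had an unadjusted p under 0.05, against 12.1% over all 13329. S100A14, an epithelial membrane-associated member, had 576, 427 and 857 with siPTHrP, against 616.8, 620 and 1259 with siLuc, and was lower in each experiment with a log2 difference of -0.39 ± 0.25 (SD, n = 3). S100A12, a neutrophil protein, had 427, 468 and 481, against 1089, 556 and 815 with siLuc. Its groups were apart, with a difference of -0.77 ± 0.54, and -0.49 without experiment 1. S100A1, a calcium sensor of heart and muscle, had 166, 444 and 835, against 2281, 581 and 709 with siLuc, where the array that stood apart held the highest value: the difference was -1.27 ± 2.09, and -0.072 without experiment 1. S100A7 (psoriasin), S100B of glia and S100G (calbindin) had differences of -0.76, -0.88 and -0.34, all under the cut, and without experiment 1 of -0.48, 0.051 and 0.054. S100B reached 377.8 on the siLuc array of experiment 1 and 19 to 51 on every other array.

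Partners and receptors of the 10 genes, a list of known interactions, were split: of 15 measured, 8 stood above 0 and 7 below, with a median log2 difference of 0.062. Without experiment 1, 5 stood above and 10 below, with a median of -0.15. Of the 13 above the cut 0 passed (limma adjusted p under 0.05). An unadjusted p under 0.05 was found for 3, against 12.1% over all 13329, and nothing is read from this count. The 3 were ANXA1, IQGAP1 and BSG, and all were higher in 3 of 3 experiments. ANXA1 (annexin A1), the partner of S100A11, had 38502, 40490 and 35665 with siPTHrP in experiments 1, 2 and 3, against 17804, 28797 and 24823 with siLuc. Its groups did not overlap, and its difference was 0.71 ± 0.35 (SD, n = 3, limma adjusted p = 0.324). It stood at 0.51 without experiment 1, while S100A11 stood at -0.15 there. ANXA2, the partner of S100A10, gave -0.052, -0.26 and -0.11 on its 3 probe sets, and the brightest was at -0.30 without experiment 1. AHNAK, a scaffold that S100A10 and annexin A2 bind, gave 0.062 on its brightest probe set, and -0.15 without experiment 1. The other AHNAK probe set, under the cut, gave 0.27 ± 1.98.

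The intracellular partners of S100P on the list stood above 0 on their brightest probe sets. S100PBP, a nuclear protein named for binding S100P, had 970, 980 and 701 with siPTHrP, against 349.4, 542 and 602 with siLuc, a difference of 0.83 ± 0.61 (SD, n = 3, limma adjusted p = 0.497). Its groups did not overlap, and it was at 0.53 without experiment 1. The scaffold IQGAP1 was at 0.55 ± 0.14 (limma adjusted p = 0.377) on its brightest probe set and at 0.35 and 0.10 on the others. Ezrin (EZR) was at 0.28 ± 0.20 on its brightest probe set, which was at 0.16 without experiment 1, and between -1.13 and 0.18 on 4 others, of which the lowest was under the cut.

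Receptors and other partners stood on both sides of 0, and 0 of those above the cut passed. BSG (basigin), a receptor of S100A9, had 13681, 12910 and 12738 with siPTHrP, against 8975, 10116 and 11240 with siLuc, with the groups apart and a difference of 0.38 ± 0.22 (SD, n = 3, limma adjusted p = 0.410). TLR4 was at 0.25 ± 0.89, and at -0.18 without experiment 1. AGER, which encodes RAGE, was at -0.46 ± 0.11 on its brightest probe set, with its mean log2 signal under the cut. The other AGER probe set, also under the cut, was at -0.65 ± 1.78 and above 0 in experiment 3 (1.15). MYH9, the myosin heavy chain that S100A4 binds, was at -0.15 ± 0.032, the narrowest spread of the list. CACYBP was at 0.16 on its brightest probe set (-0.016 without experiment 1) and at -0.59, -0.25 and -0.66 on its other 3, and ANXA6 at -0.38 ± 0.24. FGF1 and SYT1, partners of S100A13 in release, were at -0.65 ± 0.96 and -0.71 ± 1.12 on their brightest probe sets, and at -1.20 and -1.09 without experiment 1. Their other probe sets, under the cut, were at -1.67 ± 1.30 for FGF1 and 0.92 ± 1.32 for SYT1, so those of SYT1 differed in sign. PADI3, an enzyme that citrullinates S100A3, was at -1.47 ± 0.65 under the cut.

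**Figure D4:**
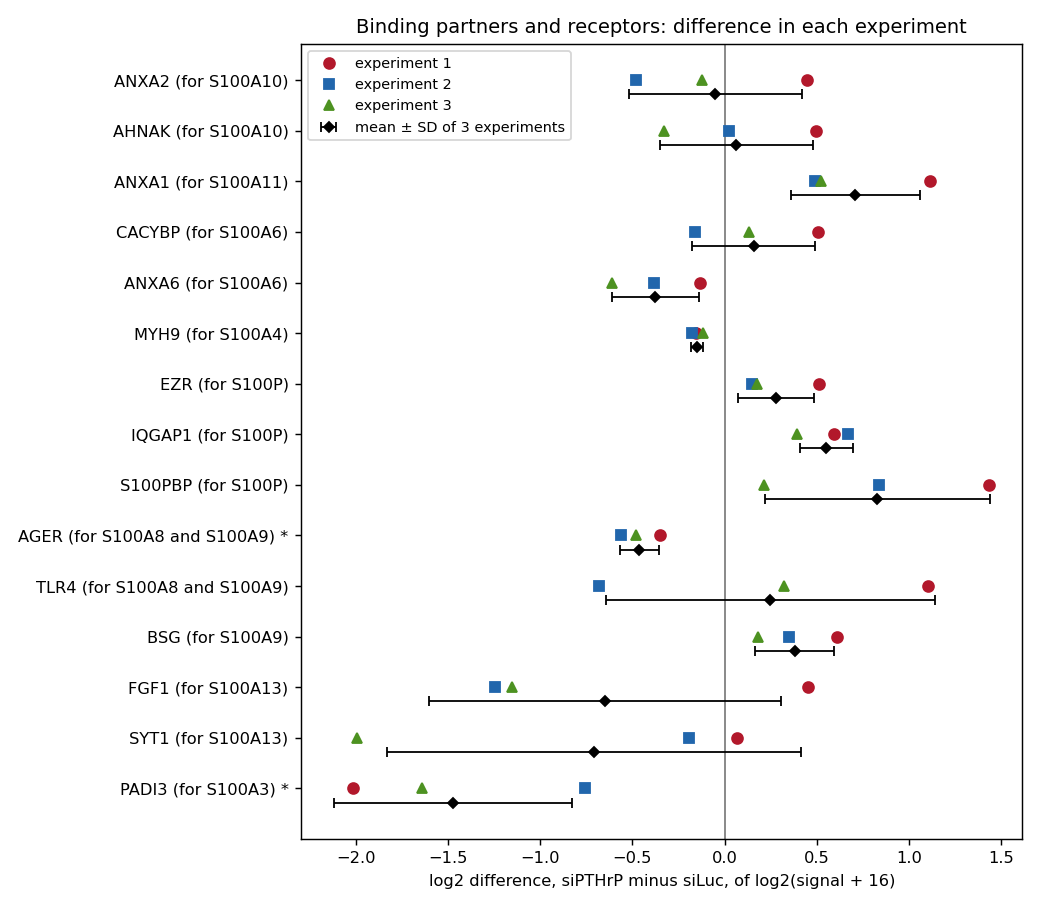
Log2 difference (siPTHrP minus siLuc, x axis) of 15 binding partners and receptors, each by its brightest probe set, in each of 3 experiments, with the mean ± SD in black and an asterisk on those under the 40th percentile. ANXA1, EZR, IQGAP1, S100PBP and BSG are above 0 in all 3 experiments, and ANXA6, MYH9, AGER and PADI3 below 0 in all 3.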

How the data were processed

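Expression was measured on 6 arrays. The deposited values are linear intensity signals, for which the submitters' processing notes name MAS5 without a version. Groups came from titles and descriptions. The unnumbered siLuc sample was taken as experiment 1 by elimination, and the siLuc sample titled 3 carries a 2 in its description, where the title was followed. The design text pairs RNAs by experiment, so experiment was a block. Deviations from group means correlated at -0.0124, 0.157 and 0.157 within experiments 1, 2 and 3 and at -0.206 to 0.132 in the 6 other combinations.

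From the 22283 probe sets 68 controls were left out. Signals were used as log2(signal + 16), and tests ran on the 13329 probe sets at or above the 40th percentile of mean log2 signal. A limma 3.58.1 model (R 4.3.3, lmFit and eBayes with an intensity trend) gave two-sided p-values, adjusted by Benjamini-Hochberg over all 13329 probe sets. It was also run on simulated data. The outcome of that run is not given here, and nothing about how the model suits these arrays is read from it. The brightest probe set stood for a gene. Symbols were updated through Entrez identifiers to RefSeq (GRCh38.p14).

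All 10 members and every partner and other S100 gene found were named, as were marker genes, and, of the annexin and calpain list and of the chromosome 1 neighbours, the 3 genes with the smallest p. Members and lists were chosen with earlier results of these data known. Protein features were not analysed here. The arrays are separate experiments, and their number limits the precision. Alternatives were no replicate block, offsets 1 and 64, other scaling, filter, variance prior or probe sets, array weights, and leaving out experiments or the siLuc array of experiment 1.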

Additional observations from a re-analysis of the deposited data

How the results depend on the processing

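The count of 0 probe sets past an adjusted p of 0.05 in limma (1618 at an unadjusted p under 0.05) was the same in 11 of 15 alternatives, among them no replicate block, which also gave 0 (1378 at an unadjusted p under 0.05). With array weights 177 passed, and when 1 experiment was left out 38 to 175 passed (leaving out experiment 1, 2 or 3 gave 38, 46 or 175). Each of the counts 177, 38, 46 and 175 is out of 13329 probe sets tested. Of the 8 member probe sets tested, 1, S100P, was among those passing with array weights and without experiment 1 or 2. Without experiment 3 there were 0. The fits without an experiment rest on fewer arrays, and nothing is read from these member counts. The number of S100 genes higher with siPTHrP stayed between 7 and 9 and their median log2 difference between 0.18 and 0.41 over 14 alternatives. In 1 of these, probe sets ending in _x_at or _s_at were left out. There S100A4 had no probe set, so its count of 7 leaves S100A4 out, and S100A8 was read by its dimmer probe set. Of 139 recomputed differences of single genes, 1 moved by more than its SD between experiments, that of S100A9 with quantile normalization (0.24). Leaving out 1 experiment cannot move a mean of 3 by as much as their SD. Dropping the block or changing the filter leaves these differences as they were. Much of this count was thus fixed in advance, and no stability is read from it. With quantile normalization the sign of S100A9 turned. The sign also turned for S100A4 without experiment 2 (-0.15), for S100A8 without experiment 3 (0.54) and for S100A11 without experiment 1 (-0.15), without the siLuc array of experiment 1 and the block (-0.051) and with array weights (-0.034). S100P ranged from 0.84 to 1.41. Median centring raised the median of all probe sets above the cut to 0.11. The causes were not tested. Low signal limits S100A3, S100A4, S100A5, S100A8 and S100A9.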

Other observations

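Annexins and calpains, calcium-binding proteins outside the S100 family, stood mostly above 0 with siPTHrP over 3 experiments: 8 of 11 measured. Their median log2 difference was 0.29, against 0.030 over all probe sets above the cut. Without experiment 1, 5 stood above 0 and 6 below, with a median of -0.12, against -0.026. None passed in limma, and 3 had an unadjusted p under 0.05, against 12.1% over all 13329 probe sets tested. ANXA5 had 29945, 29280 and 32294 with siPTHrP in experiments 1, 2 and 3, against 17157, 18723 and 24836 with siLuc, with the groups apart and a difference of 0.61 ± 0.21 (SD, n = 3, limma adjusted p = 0.324). ANXA4 was at 0.57 ± 0.57 (limma adjusted p = 0.404), but at 0.33 without experiment 1, and ANXA1 is given above.

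Of the other genes in and around the S100 cluster on chromosome 1, 25 were measured and 11 were above the cut. Over all 25 the median log2 difference was -0.61, with 19 below 0, where 59.5% of all probe sets were. Without experiment 1 it was -0.36, with 16 below 0, where 58.3% of all probe sets were. Over the 11 it was -0.095. None passed, and, against 12.1% over all 13329 probe sets tested, 1 had an unadjusted p under 0.05. This was PGLYRP4, a peptidoglycan recognition protein next to S100A9 in the RefSeq order, with 893, 608 and 391 with siPTHrP, against 1953, 1157 and 1013 with siLuc (-1.12 ± 0.21, SD, n = 3, limma adjusted p = 0.366). MRPL9, a mitochondrial ribosomal protein, was at 0.43 ± 0.46, and at 0.16 without experiment 1. The zinc transporter SLC39A1 was at -0.67 ± 1.28, and at -1.12 without experiment 1. Genes of keratinising epithelium (KRT1, KRT10, FLG, IVL, LORICRIN and SPRR1B) had a summed signal of 9165 to 9320 with siPTHrP and 8722 to 12190 with siLuc. Most of it was KRT10, the only one above 0 (0.19, and 0.0058 without experiment 1). The other 5 were below 0, and the median of the 6 was -0.90. Without experiment 1, 2 stood above 0 and 4 below, with a median of -0.77. KRT1 was at -1.67 and FLG, under the cut, at -1.97, both with the groups apart.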
